A study of Mus musculus with 8 samples.

Results

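The BCL2 family decides whether a cell keeps its mitochondria intact or dies by apoptosis, and 10 of its genes were followed here in blood-forming progenitors with and without the leukaemia fusion AML1/ETO. They were the rows of the deposited count table whose gene symbol was Bcl2, Bcl2l1, Mcl1, Bcl2a1b, Bcl2l11, Bid, Bad, Bmf, Bax or Bak1, so 10 of 54532 gene rows, of which 9 had enough reads to be tested. The libraries came from bone marrow LSK cells of C57BL/6 mice, sorted as lacking lineage markers and carrying Sca-1 and c-Kit, a fraction that holds stem cells and early progenitors. The AML1/ETO group (genotype Runx1-Runx1t1) had 3 libraries and the wild-type control group had 5. Mice of both groups received poly(I:C), which mimics viral RNA, induces interferon and is commonly used to switch on Mx1-Cre alleles, in 4 injections of 5 mg/kg, and cells were sorted 4 weeks later. The labels name no Cre driver, no age and no sex, and nothing says that replicates were separate animals. The p-values therefore cover only the spread among these libraries, which may be technical.

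BCL2 family proteins meet at the outer mitochondrial membrane. The anti-apoptotic members BCL2, BCL-XL (gene Bcl2l1), MCL1 and A1 (Bcl2a1b) hold the pore-forming effectors BAX and BAK (Bak1) in check, and the BH3-only members BIM (Bcl2l11), BID, BAD and BMF bind the guardians or trigger the effectors directly. Haematopoietic stem cells and early progenitors are known to need MCL1 to survive, and BIM is the main BH3-only brake on blood cells that lose cytokine support.

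The start regions of 4 members are shown because Mcl1 and Bcl2 moved in opposite directions below, Bcl2l11 was the BH3-only member that rose, and Bmf held the most matches to the motif of RUNX1, the DNA-binding partner in the fusion. Each line is the 250 bases before a RefSeq transcript start (assembly GRCm38.p6), 5′ to 3′ on the gene's strand, and capitals mark motif matches. The RefSeq start used for Mcl1 is not in a transcript of GENCODE, the annotation used for the gene coordinates below. The windows are chr3:95658471-95658720 on the plus strand for Mcl1, chr1:106714291-106714540 on the minus strand for Bcl2, chr2:128125788-128126037 on the plus strand for Bcl2l11 and chr2:118547600-118547849 on the minus strand for Bmf.
Mcl1: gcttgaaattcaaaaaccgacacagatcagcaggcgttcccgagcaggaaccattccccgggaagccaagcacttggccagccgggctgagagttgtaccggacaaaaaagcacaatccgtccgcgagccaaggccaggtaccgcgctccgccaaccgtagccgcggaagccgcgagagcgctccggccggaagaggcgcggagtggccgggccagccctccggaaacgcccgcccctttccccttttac
Bcl2: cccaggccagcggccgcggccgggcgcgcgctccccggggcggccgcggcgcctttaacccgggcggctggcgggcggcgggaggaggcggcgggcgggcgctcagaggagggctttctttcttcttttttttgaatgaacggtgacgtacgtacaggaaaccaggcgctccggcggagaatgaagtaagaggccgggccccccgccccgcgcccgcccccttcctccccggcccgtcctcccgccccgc
Bcl2l11: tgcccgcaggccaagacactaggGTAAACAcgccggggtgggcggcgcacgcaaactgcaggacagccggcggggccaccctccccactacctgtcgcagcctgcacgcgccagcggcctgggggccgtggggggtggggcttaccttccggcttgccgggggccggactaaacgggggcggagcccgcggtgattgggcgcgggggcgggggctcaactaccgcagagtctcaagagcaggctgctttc
Bmf: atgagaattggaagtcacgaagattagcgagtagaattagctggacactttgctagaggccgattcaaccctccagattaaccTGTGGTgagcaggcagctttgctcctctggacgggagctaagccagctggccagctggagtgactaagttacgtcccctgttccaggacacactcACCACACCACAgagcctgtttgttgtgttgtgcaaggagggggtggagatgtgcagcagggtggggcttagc
The 10 genes matched 16 RefSeq windows, and both strands were searched for 8 motifs. In the Bmf window, the RUNX motif TGTGGT matched at bases 84 to 89, 179 to 184 and 184 to 189 from the 5′ end, so the last pair overlap by 1 base. Of all 32851 windows in the table, 14.0% held that motif, and among the members only Bmf and Bak1 did, in 2 of 16 windows. The FOXO motif TGTTTAC matched once, on the opposite strand at bases 24 to 30 of the Bcl2l11 window, and 3.17% of all windows held it. The ETS motif GAGGAAGT, which PU.1 binds, was in 3 of the 16 windows (Bad, Bak1 and Bcl2a1b) and in 2.44% of all windows. The AP-1 motif TGANTCA was in the Bcl2a1b window and a NF-kappaB motif in the Bak1 window, against 6.75% and 17.6% of all windows. No member window held the CRE motif TGACGTCA, the STAT motif TTCNNNGAA or the E2F motif TTTGGCGC, which 1.55%, 7.02% and 0.417% of all windows held. The Mcl1 and Bcl2 windows held none of the 8 motifs, and their base composition was 64.4% and 74.8% G or C. A match is a run of letters, and no binding was measured.

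Library totals ran from 14693080 to 17527043 counted reads. Runx1t1, the gene that contributes the ETO sequence of the fusion, had 712, 1971 and 1611 reads with the fusion and 27 to 132 without it. Genes with low expected counts, here 20 to 50 reads expected from the rest of the group, were often without reads. Such a gene was at 0 in 42.2% to 50.7% of cases per AML1/ETO library. The share was 46.0% in control 1 and 11.0% to 26.7% in the remaining controls. The expectation rests on fewer libraries in the AML1/ETO group than in controls, and genes that truly differ between libraries count as well. Sex-linked transcripts separated the groups as well, with 28559 to 33151 reads of Xist against 0 to 111 in controls and 0 of Ddx3y against 3688 to 5038. Kit stood at 1386 CPM (read counts scaled to a common library size) against 431, and Ly6a, the gene of Sca-1, at 466 ± 394 against 15.0 ± 6.10. Rose and fell here mean called by the test of the next paragraph, which called 11.6% of all genes higher and 14.2% lower. Of the 8 LSK markers, 6 rose and 1 fell, and their summed level was 2781 to 4235 CPM against 1423 to 1786. Of the mast cell and basophil markers, 8 of 11 could be tested, 6 rose and 1 fell, and the summed level was 2525 to 6878 CPM against 35.2 to 93.9, with Prss34 at 0 in the AML1/ETO libraries. Of the tested neutrophil markers 4 of 9 fell (summed level 174 to 1067 CPM against 1161 to 3000), of the monocyte and macrophage markers 4 of 7 (38.2 to 53.3 against 159 to 349), of the B cell markers 4 of 6 (5.30 to 10.8 against 77.1 to 222) and of the T and NK cell markers 2 of 3 (5.22 to 7.59 against 62.7 to 117). Dendritic cell markers went both ways, 1 of 6 higher and 4 lower (504 to 740 against 455 to 642). Megakaryocyte markers did too, 2 of 5 higher and 2 lower (293 to 726 against 245 to 411). For erythroid markers, 1 of 6 rose and 1 fell (12.2 to 71.1 against 2.98 to 50.4), and this 33.3% called is near the 25.7% of all genes. Stromal and endothelial markers rose in 2 of 3 (349 to 460 against 152 to 196). Cx3cr1, Ebf1, Pax5 and Ighm were at 0 in every AML1/ETO library and had reads in every control, while Ms4a1, Cd3e and Cd8a were at 0 in all 8 libraries. A set of 9 early response genes (Fos, Fosb, Jun, Junb, Egr1, Ier2, Dusp1, Zfp36 and Atf3), chosen after the data were seen, rose 9 of 9 and summed to 24164 to 37655 CPM against 1511 to 2940. The sex-linked difference follows the groups in every library, so a difference in sex and the fusion cannot be told apart here. The part of the other differences in the values below was not tested. In such bulk libraries, fewer cells of a type and less RNA per cell cannot be told apart.

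The comparison of AML1/ETO with control asks which genes differ between the groups. Each gene was tested with edgeR's quasi-likelihood test over all 8 libraries, and a gene is called where its p, adjusted over 15009 genes by Benjamini-Hochberg, is under 0.05. Of the 9 members tested, 3 rose (Mcl1, Bcl2l1 and Bcl2l11), 1 fell (Bcl2) and 5 were not called. That is 44.4% of the members, where 25.7% of all genes were called, 11.6% higher (1734 genes) and 14.2% lower (2128). With library totals in place of TMM factors as the scaling, 1407 genes were called higher and 2712 lower. By class, the 3 anti-apoptotic members tested were all called, 2 higher and 1 lower, with a median log2 fold change of 1.24. Of the 6 pro-apoptotic members, 1 was called higher and 5 were not called, with a median of -0.00, which was 0.26 without AML1/ETO library 1. The median over all genes was -0.09, and it was -0.03 with DESeq2 size factors and -0.24 with library totals.

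**Figure D1:**
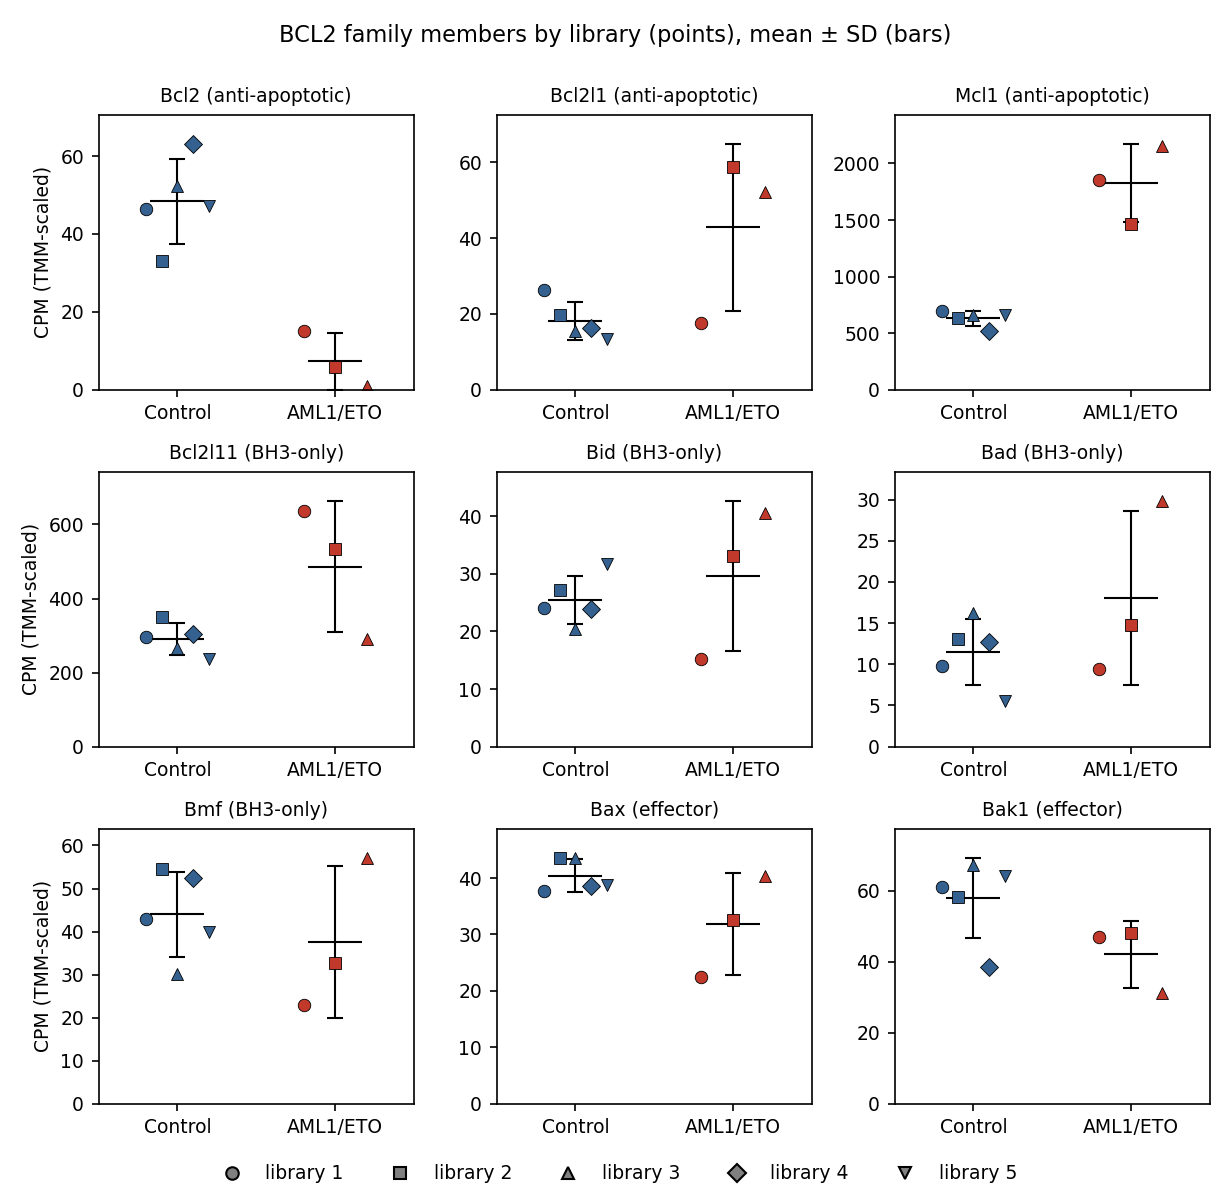
Normalised level (CPM on TMM-scaled library sizes) of the 9 members with reads, 1 panel each; points are the 3 AML1/ETO and 5 control libraries. Mcl1 lies higher and Bcl2 lower in every AML1/ETO library than in any control, and the groups overlap for the other 7.

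Among the anti-apoptotic members, Mcl1 rose and Bcl2 fell. Mcl1 (ENSMUSG00000038612, chr3:95658788-95663176, plus strand, build mm10) stood at 1855, 1464 and 2156 CPM in AML1/ETO libraries 1 to 3 and at 691, 636, 661, 519 and 658 in controls 1 to 5. Every AML1/ETO library lay above every control, as 14.1% of all genes did. The means were 1825 ± 347 CPM (SD, n = 3) and 633 ± 66.9 (n = 5), a 2.88-fold rise (log2 fold change 1.53, SE 0.15, edgeR adjusted p = 3.04e-05). The call held under all 17 alternative analyses, with log2 fold changes from 1.38 to 1.66. MCL1 protein turns over quickly and is controlled to a large extent after translation, which these counts do not measure.

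Bcl2 (ENSMUSG00000057329, chr1:106538178-106714274, minus strand) encodes the founding guardian of the family, which binds BIM and BAX. It stood at 15.1, 5.81 and 0.850 CPM in the AML1/ETO libraries and at 46.4, 33.0, 52.2, 63.1 and 47.2 in controls. All 3 AML1/ETO libraries were below the lowest control, as for 17.5% of all genes, and they differed widely among themselves, with 200, 93 and 13 reads. The means were 7.27 ± 7.26 CPM and 48.4 ± 10.9, a 6.68-fold fall (log2 fold change -2.74, SE 0.66, edgeR adjusted p = 0.00966). The call held under all 17 alternatives, from -3.92 to -2.22. The exons of Bcl2 overlap the antisense gene D630008O14Rik over 558 bases (6.09% of Bcl2 exons), and whether the counting used strand is not known.

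Bcl2l1 (ENSMUSG00000007659, chr2:152780668-152831728, minus strand) encodes BCL-XL, a guardian best known in erythroid cells and platelets. Its AML1/ETO libraries stood at 17.7, 58.7 and 52.2 CPM and its controls at 26.3, 19.6, 15.5, 16.2 and 13.4. Libraries 2 and 3 were above every control, while library 1 lay inside the control range. The means were 42.9 ± 22.0 and 18.2 ± 5.06 CPM, a 2.35-fold rise (log2 fold change 1.24, SE 0.37, edgeR adjusted p = 0.0302). The call was lost in 6 of the 16 alternatives other than the replicate block, with edgeR adjusted p from 0.0512 to 0.135: with library totals as the scaling (0.0512), without AML1/ETO library 2 (0.135) or 3 (0.109), and without control 3 (0.0606), 4 (0.0592) or 5 (0.0609).

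Bcl2a1b (ENSMUSG00000089929, chr9:89199209-89207827, plus strand) encodes an A1 isoform, a guardian of neutrophils and activated lymphocytes. It had 0 reads in all 8 libraries, which allows a level of up to 0.227 CPM in the shallowest of them, for counting error only. The zero is uncertain, since 68.37% of its 743 stretches of 75 bases also occur in other genes, mostly the copies Bcl2a1d and Bcl2a1a and the overlapping Gm29094, and how reads with several alignments were handled is not known. The copy Bcl2a1d had 9, 0 and 0 reads in the AML1/ETO libraries and 53, 17, 0, 31 and 16 in controls, and its difference was not called (log2 fold change -2.56, edgeR adjusted p = 0.458).

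Of the BH3-only members, Bcl2l11 was called. Bcl2l11 (ENSMUSG00000027381, chr2:128126038-128162547, plus strand) encodes BIM, which binds every guardian and can trigger BAX and BAK. It stood at 635, 533 and 290.6 CPM in the AML1/ETO libraries and at 296, 349, 266, 304 and 236 in controls. AML1/ETO libraries 1 and 2 lay above every control, and library 3 lay inside the control range. The means were 486 ± 177 and 290.3 ± 42.5 CPM, a 1.68-fold rise (log2 fold change 0.74, SE 0.22, edgeR adjusted p = 0.0298). The call was lost in 7 of the 16 alternatives other than the replicate block. The adjusted p was 0.0632 with library totals, 0.0858 with limma-voom and quality weights, which count less reliable libraries for less, 0.119 without AML1/ETO library 1, 0.0843 without library 2, 0.0581 without control 3, 0.0622 without control 5 and 0.150 without both libraries numbered 1, from edgeR in every case but limma-voom.

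The other 3 BH3-only members were not called in any of the 17 alternatives. Bid (ENSMUSG00000004446, chr6:120891930-120916853, minus strand), which caspase-8 cleaves to link death receptors to mitochondria, stood at 15.2, 33.1 and 40.6 CPM in AML1/ETO libraries and 20.4 to 31.6 in controls, with a median of 24.1. Its AML1/ETO libraries lay on both sides of the control range, and the log2 fold change was 0.22 (95% interval -0.48 to 0.92, edgeR adjusted p = 0.693). Bad (ENSMUSG00000024959, chr19:6941861-6951899, plus strand), which growth factor signalling inactivates by phosphorylation, stood at 9.46, 14.7 and 29.8 CPM against 5.51 to 16.3, median 12.7, in controls. AML1/ETO library 3 alone exceeded the controls, and the log2 fold change was 0.65 (-0.38 to 1.68, edgeR adjusted p = 0.360). Bmf (ENSMUSG00000040093, chr2:118528757-118549687, minus strand), whose protein is held on the cytoskeleton until released, stood at 23.0, 32.6 and 57.1 CPM against 30.2 to 54.6, median 43.0. The groups overlapped and the log2 fold change was -0.23 (-0.90 to 0.45, edgeR adjusted p = 0.665). These intervals reach from -0.90 to 1.68 in all, so the data do not show that the levels were equal. Exons of Bid and Bad overlap exons of the opposite-strand genes Bcl2l13 (628 bases, 17.7% of Bid exons) and Gpr137 (524 bases, 20.5% of Bad exons).

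Both effectors had lower means in AML1/ETO libraries and neither was called in any of the 17 alternatives. Bax (ENSMUSG00000003873, chr7:45461697-45466898, minus strand), which moves from the cytosol to mitochondria to form pores, stood at 22.5, 32.6 and 40.4 CPM against 37.7, 43.5, 43.6, 38.5 and 38.8. AML1/ETO libraries 1 and 2 were below every control and library 3 lay among them. The log2 fold change was -0.34 (95% interval -0.86 to 0.17, edgeR adjusted p = 0.329). Bak1 (ENSMUSG00000057789, chr17:27019810-27029009, minus strand), which sits on mitochondria already, stood at 47.0, 48.0 and 31.1 CPM against 61.1, 58.2, 67.3, 38.6 and 64.3. Control 4 lay among the AML1/ETO libraries, and the log2 fold change was -0.46 (-0.99 to 0.07, edgeR adjusted p = 0.186). Exons of Bak1 overlap Ggnbp1 on the opposite strand over 437 bases, and exons of Bax overlap Gm45808 on the same strand over 192.

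Relative to the mean, libraries differed more in the AML1/ETO group for all 9 members tested, as for 65.6% of the 14120 tested genes with reads in both groups, while the SD itself was smaller there for Bcl2 and Bak1. The coefficient of variation (SD over mean) was 99.8% against 22.5% for Bcl2, 51.4% against 27.8% for Bcl2l1 and 19.0% against 10.6% for Mcl1. For the pro-apoptotic members it ran from 22.5% (Bak1) to 58.7% (Bad) in the AML1/ETO group and from 7.11% (Bax) to 35.2% (Bad) in controls. With 3 and 5 libraries these spreads are themselves imprecise, and their difference was not tested.

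**Figure D2:**
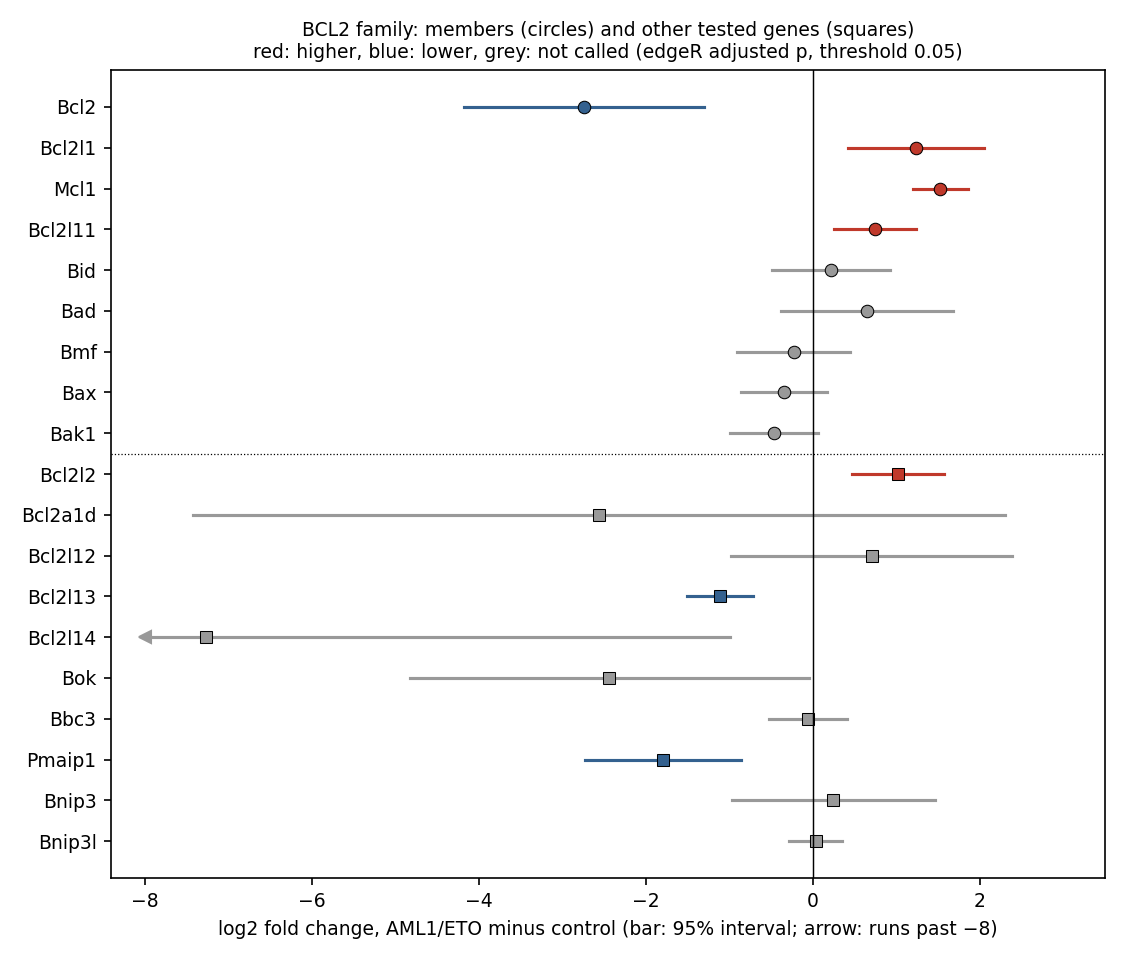
Log2 fold change (AML1/ETO over control) with its 95% interval from edgeR for the members and the other BCL2 family genes tested. Mcl1 at 1.53 and Bcl2 at -2.74 lie on opposite sides of 0, and the intervals of Bid, Bad, Bmf, Bax and Bak1 include 0.

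Levels of different genes are compared per length, as reads per kilobase of exon and of library size in the same scaling as CPM (RPKM). Mcl1 was the highest member in both groups, at 534 ± 102 RPKM in AML1/ETO libraries and 185 ± 19.6 in controls. It ranked 66 to 78 among the 15009 tested genes in libraries with the fusion and 163 to 223 in controls. Bcl2l11 came next, at 60.6 ± 22.0 and 36.2 ± 5.30 RPKM, followed by Bax at 20.2 and 25.6 and Bak1 at 17.5 and 24.1, whose ranges overlapped each other in both groups. In controls the remaining members, Bmf at 8.38, Bid at 7.16, Bcl2 at 5.28, Bad at 4.49 and Bcl2l1 at 3.97 RPKM, each overlapped the next in the order. In the AML1/ETO libraries Bcl2l1 at 9.35, Bid at 8.34, Bmf at 7.15 and Bad at 7.04 overlapped likewise, and Bcl2 at 0.794 RPKM lay below all of them. With the longest transcript in place of the union of exons as the length, Bcl2l1 stood at 16.7 RPKM, Bad at 11.7 and Bcl2l11 at 96.6 in AML1/ETO libraries. The ranges of Bax (20.4 to 36.7, and 34.2 to 39.6 in controls) and Bak1 (13.0 to 20.1, and 16.2 to 28.2) then no longer overlapped in either group, and those of Bak1 and Bcl2l1 in AML1/ETO libraries did. Mcl1 stayed highest, Bcl2l11 next and Bcl2 below the other members with reads in AML1/ETO libraries. Bcl2 ranked 10263 to 12416 among tested genes there and 6455 to 8517 in controls. On either length, Bcl2 and Bcl2l1 stood in overlapping ranges in controls and in separate ones in AML1/ETO libraries. On the union of exons, Bcl2l1 held 2.34, 20.2 and 123 times the level per length of Bcl2 in AML1/ETO libraries 1 to 3, against 0.512 to 1.19 times in controls.

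The members' summed levels per length were then set against each other within each library, where the scaling of libraries cancels. The anti-apoptotic sum was 548, 442 and 642 RPKM in AML1/ETO libraries and 213, 194, 203, 162 and 201 in controls. The pro-apoptotic sum was 125, 128 and 109 RPKM against 99.4 to 118 in controls, with a median of 105. The first sum was separate between the groups and the second overlapped. Their ratio was 4.38, 3.44 and 5.91 in AML1/ETO libraries (mean 4.58 ± 1.24) and 2.03, 1.64, 1.90, 1.62 and 2.02 in controls (1.84 ± 0.200), with no overlap and a difference in mean log2 ratio of 1.29. It is a description of transcripts chosen with results of these data known, and no test was made of it.

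Mcl1 made up most of the first sum, 97.0% to 99.0% in AML1/ETO libraries and 93.6% to 96.0% in controls. Bcl2 made up 0.302%, 0.144% and 0.014% of it in AML1/ETO libraries and 1.86% to 4.25% in controls. Bcl2l1 made up 0.705% to 2.90% and 1.46% to 2.69%, which overlap. In the pro-apoptotic sum, Bcl2l11 made up 63.1%, 51.8% and 33.3% in AML1/ETO libraries and 29.6% to 37.8% in controls. Bak1 made up less of it in each AML1/ETO library, 11.9% to 15.6%, than in any control, 16.0% to 26.9%, and Bax made up 11.4% to 23.6% against 22.8% to 25.9%. Without Mcl1 and Bcl2l11, the highest member of each sum, the ratio was 0.119, 0.217 and 0.158 in AML1/ETO libraries and 0.105 to 0.168 in controls, so the groups overlapped and the difference in mean log2 ratio was 0.28. Left out alone, Mcl1 ended the separation: the ratio was then 0.044, 0.105 and 0.106 against 0.0666 to 0.104, a difference of -0.14. Without Bcl2l11 alone the ratio was 11.9, 7.14 and 8.85 against 2.59 to 3.13, a difference of 1.71. The separation of the groups in the ratio therefore rests on Mcl1.

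Mcl1 and Bcl2l11, whose proteins bind each other, were also set side by side. Mcl1 held 6.86, 6.45 and 17.4 times the level per length of Bcl2l11 in AML1/ETO libraries and 4.01 to 6.55 times in controls. Library 2 lay inside the control range. Bcl2l11 held 47.8, 105 and 390 times the level of Bcl2 in AML1/ETO libraries and 5.49 to 12.1 times in controls, and Bax held 8.63, 32.6 and 276 times against 3.55 to 7.66. These last 2 ratios did not overlap between the groups, and Bcl2 in library 3 rests on 13 reads.

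**Figure D3:**
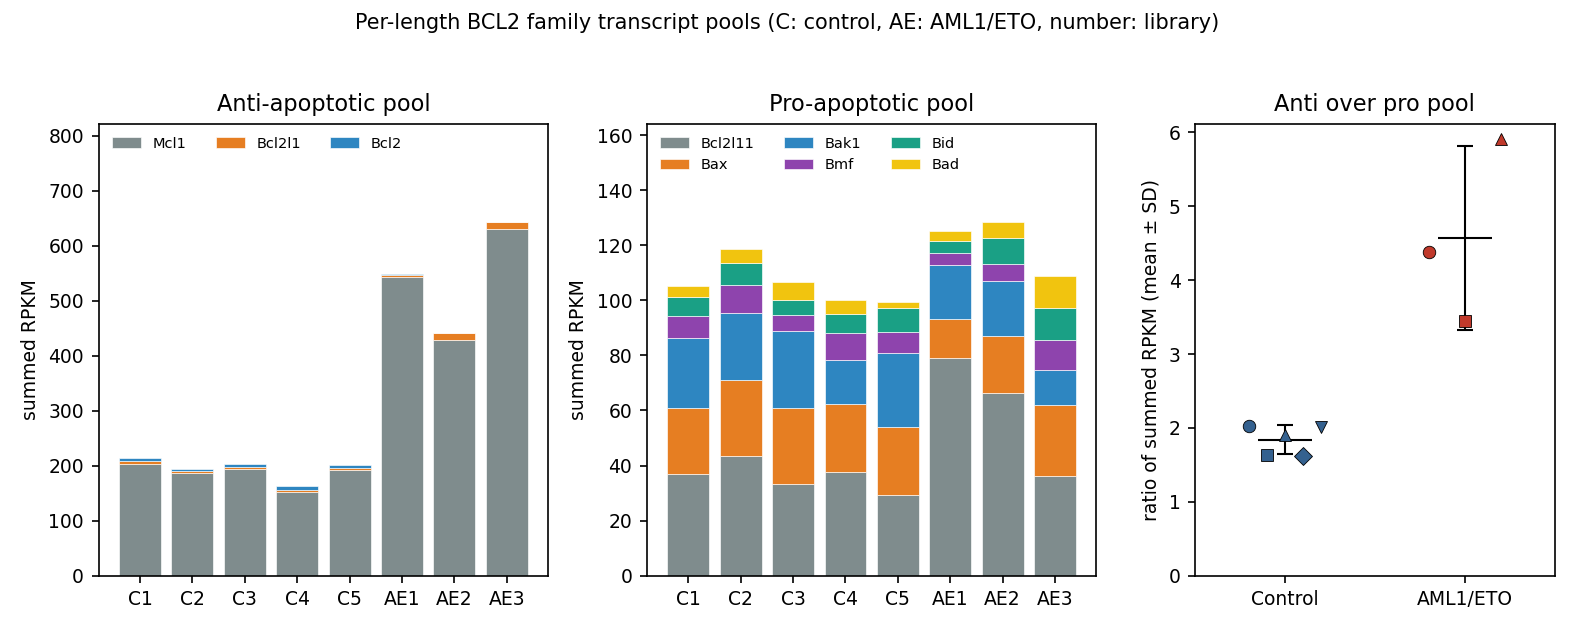
Summed level per length (RPKM) of anti- and pro-apoptotic members by library, stacked by member, and the ratio of the sums (points are libraries, bars are mean ± SD). The ratio lies between 3.44 and 5.91 with the fusion (3 libraries) and between 1.62 and 2.03 without it (5 libraries).

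Of 16 further BCL2 family genes, 10 could be tested, 1 rose and 2 fell, with a median log2 fold change of -0.59 that was the same with Bcl2l14, which had 0 reads in AML1/ETO libraries, at its bound. That is 30.0% called, near the 25.7% of all genes. Bcl2l2, the gene of the guardian BCL-W, rose from 19.1 ± 2.26 to 39.0 ± 9.93 CPM (log2 fold change 1.03, SE 0.25, edgeR adjusted p = 0.0109). That call was lost without AML1/ETO library 2 (0.0697). Exons of Bcl2l2 overlap those of Gm20521 on the same strand over 594 bases (13.3% of Bcl2l2 exons). Pmaip1, the gene of the BH3-only protein NOXA that binds MCL1, fell from 30.7 ± 11.1 to 8.90 ± 4.11 CPM (log2 fold change -1.79, SE 0.43, edgeR adjusted p = 0.00952), and the call was lost with limma-voom and quality weights (0.0694). Bcl2l13, a mitochondrial relative, fell from 140.4 to 64.9 CPM (log2 fold change -1.11, edgeR adjusted p = 0.000930) and held in all 17 alternatives. Bbc3, the gene of the p53-induced BH3-only protein PUMA, stood at 186 CPM against 193, with a log2 fold change of -0.06 (95% interval -0.53 to 0.41, edgeR adjusted p = 0.889). With Bcl2l2, Bbc3 and Pmaip1 added to the sums above, the difference in mean log2 ratio was 1.44. The ratio itself was then lower in both groups, at 2.32, 2.32 and 3.26 in AML1/ETO libraries and 0.888 to 1.08 in controls. The level of the ratio thus depends on which genes are summed.

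Of 18 genes of the mitochondrial and caspase arm, 4 rose and 4 fell (median log2 fold change -0.05). This is 44.4% called, against 25.7% of all genes. Apaf1, the scaffold of the apoptosome, rose from 74.4 to 195 CPM (1.39, edgeR adjusted p = 0.000848), and Htra2, a protease released from mitochondria, rose by 0.99 on the log2 scale (edgeR adjusted p = 0.00703). Cycs, which encodes the cytochrome c that activates APAF1, fell by 0.79 (edgeR adjusted p = 0.0121). Vdac2, an outer membrane channel that binds BAK, fell by 0.64 (edgeR adjusted p = 0.0128), and its adjusted p was 0.0539 without AML1/ETO library 3. Apoptosome genes thus included members called in both directions.

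Of the 6 inhibitor of apoptosis genes, 3 rose and 1 fell (median 0.78), so 66.7% were called, against 25.7% of all genes. Birc2, the gene of cIAP1, rose from 90.0 to 273 CPM (1.60, edgeR adjusted p = 6.19e-05), Naip2 by 1.38 and Birc3, the gene of cIAP2, by 1.16 on the log2 scale (edgeR adjusted p = 0.00225 and 0.00350). Birc5, which encodes survivin and is also a mitotic gene, fell by 1.65 (edgeR adjusted p = 0.0125). Of 12 genes of death receptors and the apoptosis and necroptosis signalling below them, 3 rose and 1 fell (median -0.05). Here 33.3% were called, near the share of all genes. The death ligand gene Tnfsf10 rose by 1.55 (edgeR adjusted p = 0.00297) and its receptor gene Tnfrsf10b by 2.39 (edgeR adjusted p = 0.00705), but without AML1/ETO library 1 the latter was 1.43 (0.0729) and its adjusted p without both libraries numbered 1 was 0.0912. Cyld fell by 0.82 (edgeR adjusted p = 0.0169, and 0.0531 without control 2). Cflar, a brake on caspase-8, rose by 0.58 (edgeR adjusted p = 0.0391), a call lost in 7 of those 16 alternatives.

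Among 16 genes whose proteins modify or hold BCL2 family proteins, 2 rose and 3 fell (median -0.27). That share, 31.25%, is near the 25.7% of all genes. Pim1, a kinase that phosphorylates BAD, rose 7.81-fold from 224 to 1747 CPM (2.97, edgeR adjusted p = 3.54e-05). Ywhab and Ywhae, 14-3-3 proteins of the kind that bind phosphorylated BAD, fell by 1.34 and 0.68 on the log2 scale (edgeR adjusted p = 0.00146 and 0.00730). Btrc, a ubiquitin ligase subunit, rose by 1.08 (edgeR adjusted p = 0.0130), and the call was lost without AML1/ETO library 1 (0.0613). Of 15 tested genes of transcription factors that are known to act on family genes, 5 rose and 3 fell (median 0.49). This list had 53.3% called, against 25.7% of all genes. Myb rose by 1.57, Ddit3 by 1.26 and Stat5a by 0.83, and Spi1, the gene of PU.1, fell by 2.60 (edgeR adjusted p = 0.000324, 0.00186, 0.000966 and 2.10e-06). No factor's binding at a member was measured.

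**Figure D4:**
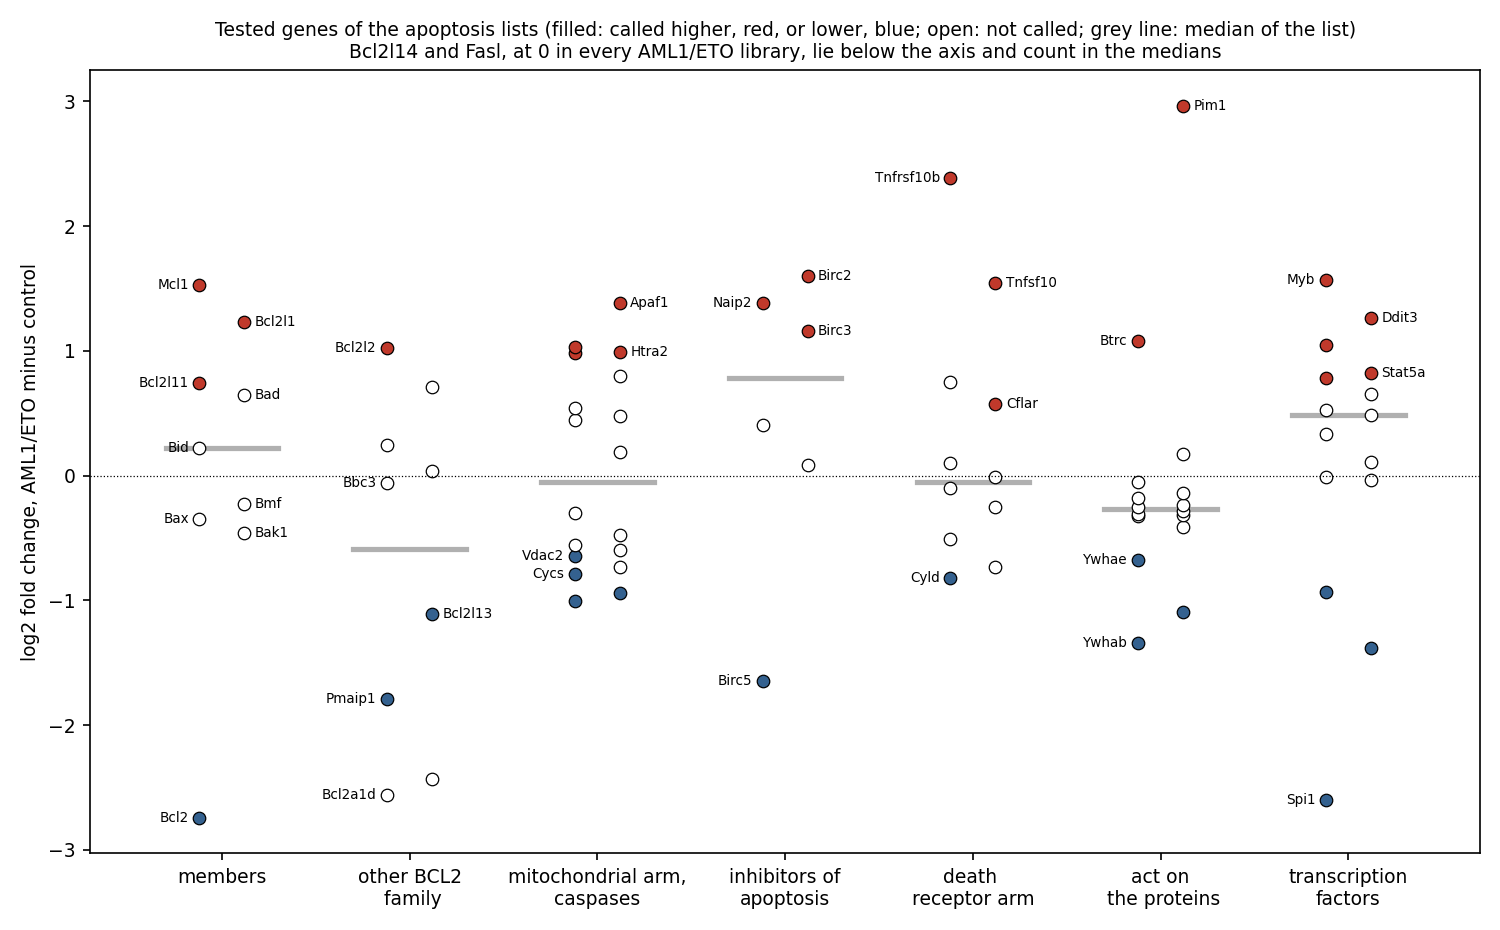
Log2 fold change (AML1/ETO over control) of the tested members and the tested genes of 6 pathway lists, with each list's median; Bcl2l14 and Fasl, at 0 in every AML1/ETO library, lie below the axis. Each pathway list holds genes on both sides of 0, and the medians run from -0.59 for the other family genes to 0.78 for the inhibitor of apoptosis genes.

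The genes nearest in pattern to the members with the smallest p in each class were ranked by Pearson r of log2 CPM over the 8 libraries, among 10621 genes averaging at least 5 CPM. For Mcl1 they were Il3ra, a subunit of the interleukin-3 receptor (r = 0.996), Midn (0.994) and Clca3a1 (0.994). For Bcl2l11 they were Ercc5 (0.973), Ythdc1 (0.958) and Osgin1 (0.952). The 8 points fall into the study's groups, so an r for Mcl1 reflects the difference between the groups as well as the spread within them.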

How the data were processed

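Values are raw read counts per gene that the authors deposited, with 1 column per library; per the submitters' processing notes, alignment and counting involved HISAT2 2.0.5 and featureCounts 1.5.0-p3, on mm10. Annotation release, strand setting and treatment of multiply aligned reads: not given in the sources used here. Symbols, exons and coordinates came from GENCODE M21.

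Counts were filtered with filterByExpr, scaled with TMM and tested two-sided with edgeR 4.0.16 (R 4.3.3) quasi-likelihood, without covariates, at an adjusted p of 0.05 (Benjamini-Hochberg); the biological coefficient of variation was 72.6%. RPKM used TMM-scaled sizes and the union of exons. Pathway genes were named by smallest p, up to 4 per list, plus Pmaip1, Bbc3, Bcl2l2, Bcl2a1a and Bcl2a1d. The procedure was run on counts simulated from its own fitted model, a run that cannot show how it does where that model fails. Members and lists were chosen with earlier results of these data known.

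Alternatives were DESeq2 1.42.0, limma-voom (limma 3.58.1) weighting libraries by quality, DESeq2 size factors, library totals, no filter, 1 CPM in 3 libraries, each library left out, both libraries numbered 1 left out, no X and Y genes, and a replicate block; for sums per length, the longest transcript, no highest member, Bcl2a1 copies summed and, chosen after seeing the data, Mcl1 or Bcl2l11 alone left out or 3 genes added.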

Additional observations from a re-analysis of the deposited data

Results flagged for a closer look

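Among the 5 controls, the highest or lowest library was compared with the rest in 37 sets of values, and 3 stood apart, where chance flags about 1 in 20. Control library 3 had Pim1 at 408 CPM, with the other controls at 163 to 211. Control library 1 had Ywhab at 165 CPM, with the others at 239.5 to 248. Control library 1 had Bcl2a1a at 0.0585 CPM, which is 1 read, with the others at 0. With the others at 0 any read is flagged, so the rate of 1 in 20 does not apply to Bcl2a1a.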

How the results depend on the processing

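Mcl1 and Bcl2 kept their calls under all 17 alternatives, Bcl2l1 lost its call in 7 and Bcl2l11 in 8, and no called member changed direction. Of the members, 3 were called higher, against 1 with library totals alone and 1 to 3 with a library left out (1 without AML1/ETO library 2 or control 3 or 5). The pro-apoptotic median of -0.00 ran from -0.19 to 0.26 with a library left out and was 0.26 without both libraries numbered 1. The difference in log2 ratio of the sums was 0.28 without the highest member of each, -0.14 without Mcl1 alone and 1.71 without Bcl2l11 alone. The cause of the changes in calls was not tested.

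Replicate numbers showed no sign of pairing the samples: deviations of same-numbered libraries correlated at 0.039, -0.039 and 0.027. Those of differently numbered libraries correlated at -0.087 to 0.065. With the replicate block, 951 genes were called higher and 1098 lower, and 1 member higher. Under the block the edgeR adjusted p was 0.304 for Bcl2l1, 0.112 for Bcl2l11, 0.151 for Bcl2l2, 0.05002 for Htra2, 0.105 for Cycs, 0.109 for Vdac2, 0.0594 for Naip2, 0.115 for Tnfrsf10b, 0.0544 for Cflar and 0.142 for Btrc, none of them called.

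Low members rest on few reads: Bcl2 had 13 reads in AML1/ETO library 3, and zeros among genes with 20 to 50 expected reads were common there. AML1/ETO library 3 had 16321717 counted reads in all, and control 2, with the smallest share of such zeros, had 16745356. The cause of the zeros was not tested.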
